A study of Caenorhabditis elegans with 2 samples.

Results

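The subunits of the 26S proteasome are encoded in *Caenorhabditis elegans* by genes whose symbols begin with pas, pbs, rpt or rpn. Protein-coding genes with such a symbol and a number in the Ensembl annotation of WBcel235 were taken as the members, which gave 33 of 19985 protein-coding genes. They comprised 7 genes of the alpha ring and 7 of the beta ring of the 20S core, 6 ATPase genes and 13 non-ATPase genes of the 19S regulatory particle. A peak was counted for a gene when its summit lay in the gene body or up to 2000 bp upstream of the annotated start, a stretch called the gene window here. CEH-16, the worm homologue of engrailed, had been mapped by chromatin immunoprecipitation and sequencing (ChIP-seq) in whole L3 larvae, males and females pooled, of strain OP82, which has the genotype unc-119(tm4063) III; wgIs82 and stably expresses CEH-16 with a GFP-FLAG tag at its C terminus. The 2 biological replicates carried the same genotype and form the only group, so peaks were compared between gene lists and between replicates, not between conditions. Because whole animals were used, peaks cannot be traced to a cell type, and an untagged strain was not analysed here. The labels give ceh-16 as the antibody target.

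The proteasome degrades proteins that carry ubiquitin chains. The 20S core is a barrel in which outer alpha rings gate the entry of substrates and inner beta rings hold the proteolytic sites. The 19S particle caps the barrel, and its ATPase ring, the RPT subunits, unfolds substrates and feeds them into the core, while RPN subunits bind ubiquitin, remove it and hold the particle together. All subunits are needed in fixed proportion, and in worms the transcription factor SKN-1 is known to raise proteasome gene expression when proteasome function falls. CEH-16 itself is known for its role in the lateral epidermis, where it acts in the development of the seam cells.

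Peak lists were deposited for the pooled replicates (30000 peaks), for replicate 1 (19150 peaks) and for replicate 2 (30000 peaks), all called at a relaxed setting that was meant to include background, and a list of 214 peaks had been thresholded by the irreproducible discovery rate (IDR). The signal of a peak is the value the authors gave it, on a scale that is not stated, and it was used to describe and rank peaks within a list. The pooled signal ran from 11.5 to 2989, with a median of 15.1, and the lowest signal of the thresholded list was 43.6. Mitochondrial peaks numbered 25 in the pooled list and 25 among the 214 thresholded peaks. The highest signal of a nuclear peak was 148.3 in both lists, so the values above it were mitochondrial. Read counts are not part of these lists, and the depth of the libraries is therefore unknown.

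Among the proteasome genes, rpn-3 was the 1 member with a thresholded peak. Together with rpn-8, whose sequence is not printed, pbs-1 and rpn-13 had the highest pooled signals after rpn-3. The sequences around the strongest summit are shown for rpn-3, pbs-1 and rpn-13. Each runs from 100 bp before to 100 bp after the summit on the strand of the gene, 5′ to 3′, read from the RefSeq copy of the WBcel235 assembly (ce11). Capitals mark every match, on either strand, to any of 7 short words: the homeodomain cores TAATTA and also TAATTG, the SKN-1-type cores GTCAT and also ATCAT, the antioxidant response element core TGACNNNGC, then GAGAGA and finally CGCGCA.
rpn-3, chrIII:8447042-8447242, plus strand: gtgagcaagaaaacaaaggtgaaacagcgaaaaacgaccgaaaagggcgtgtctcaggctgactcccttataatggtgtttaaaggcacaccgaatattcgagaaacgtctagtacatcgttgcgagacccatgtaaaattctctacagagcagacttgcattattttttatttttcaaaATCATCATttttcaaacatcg
pbs-1, chrIV:1709885-1710085, minus strand: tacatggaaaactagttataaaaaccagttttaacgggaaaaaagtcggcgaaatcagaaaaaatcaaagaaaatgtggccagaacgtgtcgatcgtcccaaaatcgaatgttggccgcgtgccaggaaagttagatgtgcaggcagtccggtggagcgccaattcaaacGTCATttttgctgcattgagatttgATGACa
rpn-13, chrIII:6342180-6342380, minus strand: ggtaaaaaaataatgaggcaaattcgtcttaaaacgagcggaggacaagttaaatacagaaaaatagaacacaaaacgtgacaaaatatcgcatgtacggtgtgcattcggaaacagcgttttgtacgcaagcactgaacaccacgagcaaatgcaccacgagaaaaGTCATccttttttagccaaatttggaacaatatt
The rpn-3 stretch held 2 overlapping copies of ATCAT and none of the other words, the pbs-1 stretch held GTCAT on both strands, and the rpn-13 stretch held GTCAT once. None of the 3 held TAATTA, the engrailed-type core. A match to such a short word is a description of the letters, not a binding site.

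The proteasome gene with by far the strongest signal was rpn-3, which encodes a lid subunit of the 19S particle (III from 8447353 to 8449346, plus strand). Its thresholded peak (III from 8446967 to 8447316) had its summit 211 bp upstream of the start, at a pooled signal of 54.4. The matched replicate summits had signals of 13.4 in replicate 1 and 40.4 in replicate 2. Within its own list, the replicate 1 summit ranked 1312 and the replicate 2 summit ranked 75, so the summit stood near the top of the replicate 2 list and lower in the replicate 1 list. In the pooled list it ranked 117, and 99.2% of the 14496 protein-coding genes with a pooled peak had a strongest signal at or below that of rpn-3.

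The rpn-3 summit lay in a stretch shared by divergent genes. The start of hsp-110, a gene of the HSP70 chaperone family that is transcribed away from rpn-3, was 233 bp from the summit on its other side, so the summit was about as near to one start as to the other. A further 3 pooled summits of the rpn-3 window, at 1001, 1657 and 1884 bp upstream of rpn-3, lay inside the hsp-110 gene and nearer to its start. Their pooled signals were 29.4, 13.5 and 23.5, and each was matched in both replicates. The fifth summit of the window lay in the 3′ UTR of rpn-3 at a signal of 14.1. The neighbouring thresholded peak at 67.9, beyond the far end of hsp-110, lay outside the rpn-3 window.

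**Figure D1:**
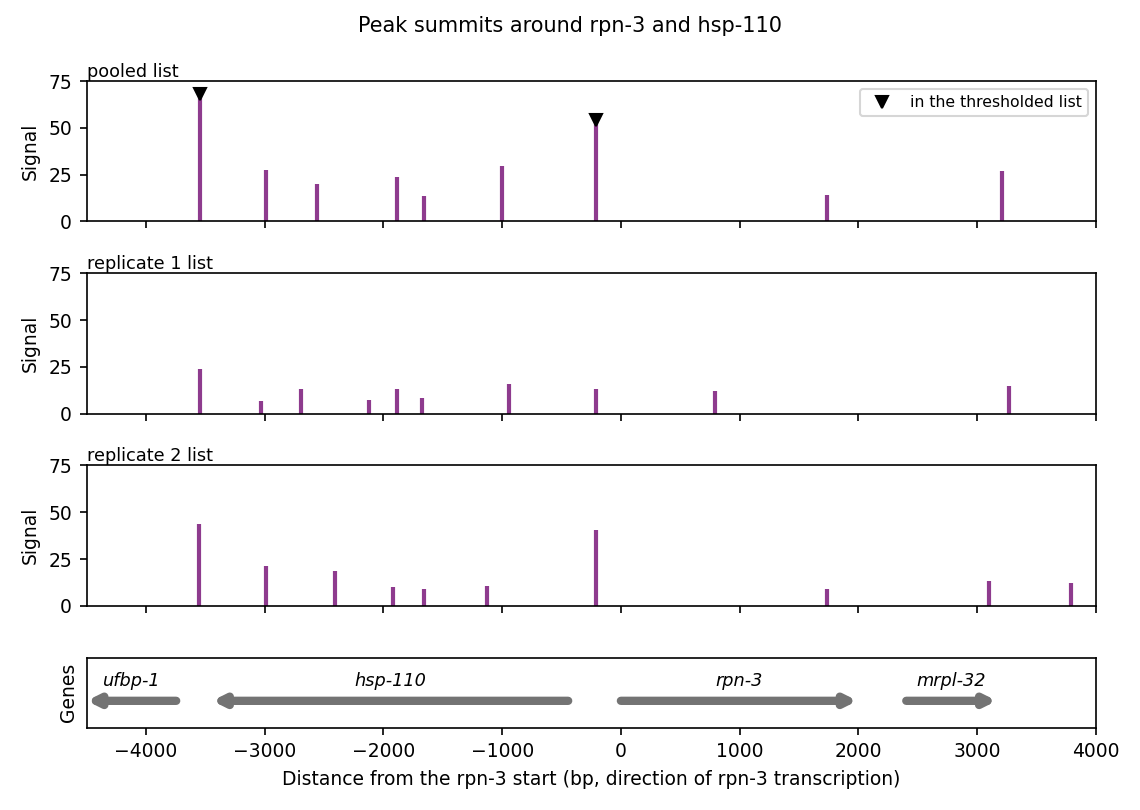
Summits in the pooled, replicate 1 and replicate 2 lists around rpn-3, as signal (authors' value, vertical axis) against distance in bp from the rpn-3 start (horizontal axis), with genes below as arrows in the direction of transcription and triangles on the thresholded peaks. The summit 211 bp upstream of rpn-3, between the divergent starts of rpn-3 and hsp-110, stands at 54.4 in the pooled list, 13.4 in replicate 1 and 40.4 in replicate 2.

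Across all members, the relaxed lists held a peak for most genes, as they did for most genes of the genome. A pooled peak was present in the window of 28 of 33 proteasome genes (84.8%), against 72.5% of all protein-coding genes. A replicate 1 peak was present for 21 members (63.6%, against 57.8% of all genes) and a replicate 2 peak for 27 members (81.8%, against 72.7%). A peak in both replicate lists, at any place in the window, was found for 16 members (48.5%, against 47.1%). These shares depend on letting a summit count for several genes. With each summit given to the nearest start only, 20 of 33 members kept a pooled peak, below the 67.6% of all genes. A peak in both replicate lists was then left for 11 of 33, below the 42.9% of all genes. The median window was 3490 bp for the members and 4026 bp for all genes, so the members' windows were not longer. The thresholded list reached 1 of 33 members (3.03%), against 1.25% of all genes.

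Signal at the members was spread around that of other genes. The median of the strongest pooled signal was 18.7 over the 28 members with a pooled peak and 17.1 over the 14496 genes with one, and it was 18.7 as well for the 27 members other than rpn-3. Above the genome median of 17.1 lay 16 of the 28 members. In the replicate 2 list the members' median was 12.3, against 12.4 for all genes with a peak there. In the replicate 1 list it was 9.91, against 8.68. Apart from rpn-3, no member had a pooled signal above 24.7, well under the lowest thresholded signal of 43.6.

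**Figure D2:**
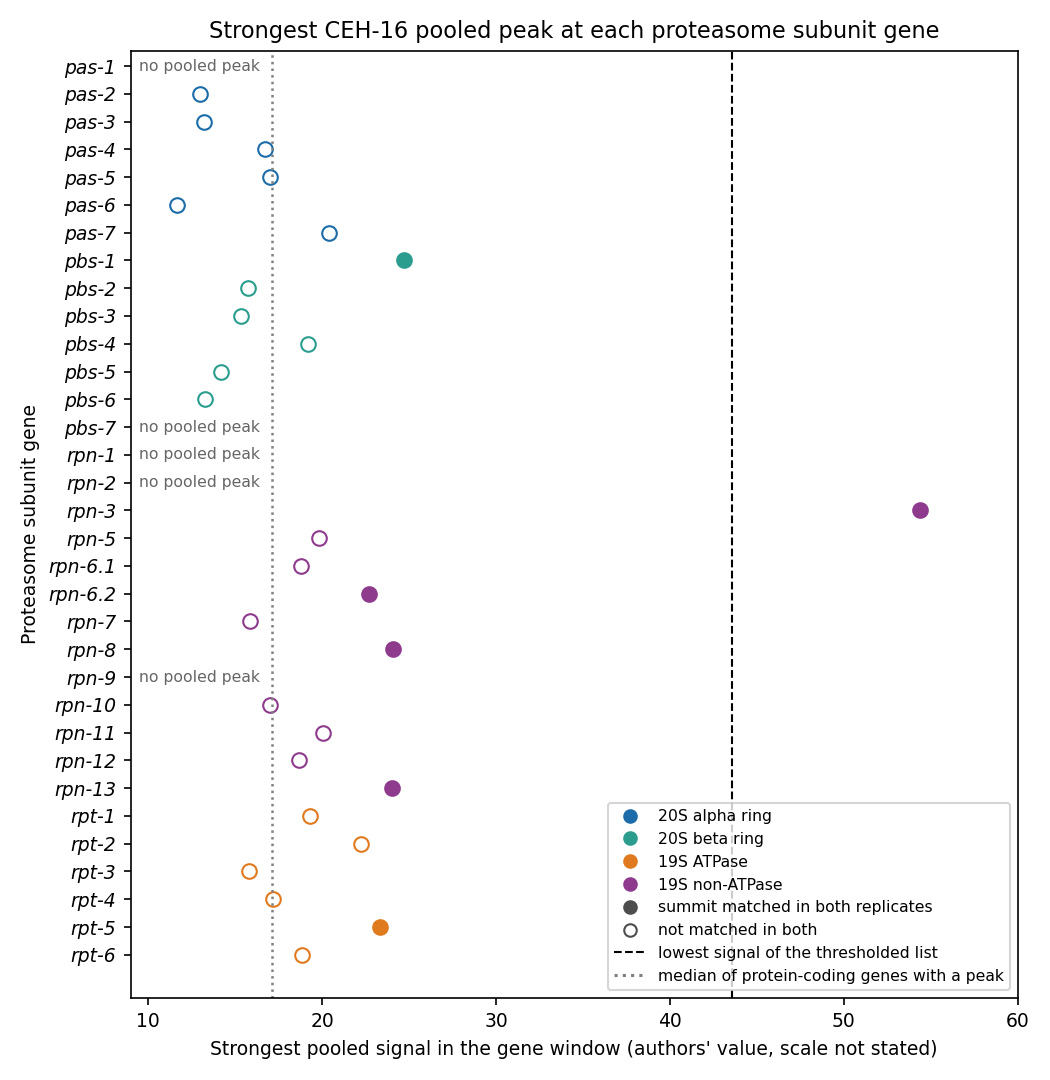
The strongest pooled signal in the window of each of the 33 proteasome genes (horizontal axis, authors' value), coloured by role and filled where the summit had a summit within 200 bp in both replicate lists. Only rpn-3, at 54.4, lies right of the dashed line at 43.6, the lowest thresholded signal; the dotted line at 17.1 is the median of protein-coding genes with a pooled peak.

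Of the alpha ring genes of the 20S core, which form the gate of the barrel, 6 of 7 had a pooled peak. Their strongest signals had a median of 15.0 and ran from 11.7 at pas-6 to 20.4 at pas-7. The pas-7 summit, 1046 bp upstream of its start, lay inside puf-12 and was matched in replicate 2 at 13.8. Of the 11 alpha ring summits, 8 were matched in replicate 2 alone, 2 in replicate 1 alone, 1 in neither and 0 in both. Over all protein-coding genes, 47.8% of summits were matched in replicate 2 alone and 19.5% in both. The pas-5 summit 1138 bp upstream went the other way, with 17.1 in replicate 1 and no match in replicate 2, and it lay within 200 bp of the snoRNA gene F25H2.15. The pas-1 window held no pooled peak but 2 replicate 1 peaks, the stronger at 8.14.

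Of the beta ring genes, which include the proteolytic subunits, 6 of 7 had a pooled peak, with a median strongest signal of 15.5. The strongest was pbs-1 (IV from 1708814 to 1709745, minus strand), whose summit lay 240 bp upstream of the start at a pooled signal of 24.7, with 7.28 in replicate 1 and 17.3 in replicate 2. Here too a divergent gene was close, since the start of K08D12.3 was 280 bp from the summit. It was the 1 beta ring summit of 10 matched in both replicates (19.5% over all genes), and 8 were matched in replicate 2 alone (47.8% over all genes). The pbs-2, pbs-3 and pbs-4 genes had summits 310, 84 and 123 bp upstream of their starts, at pooled signals of 15.7, 15.3 and 17.1, all matched in replicate 2 alone. The strongest pbs-4 summit, at 19.2, lay in an intron 150 bp after the start. It was matched to the same replicate 2 summit, at 15.3, as the pbs-4 summit 123 bp upstream. The pbs-7 window held only replicate 1 peaks, the stronger at 8.75.

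All 6 ATPase genes of the 19S particle had a pooled peak, with a median strongest signal of 19.1. The highest was rpt-5, with a summit 396 bp upstream of the start at 23.3, against 8.20 in replicate 1 and 15.9 in replicate 2. That summit was nearer to the start of rad-8, at 213 bp. The rpt-2 window reached 22.2 at a summit 1995 bp upstream, inside picc-1, which was matched in replicate 1 alone at 16.5. Nearer to its start, 138 bp upstream, rpt-2 had a pooled summit of 16.3 with no match in either replicate list. The rpt-1 gene had a single pooled summit, 435 bp upstream, at 19.3 and at 12.1 in replicate 2.

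The non-ATPase genes of the 19S particle held most of the summits found in both replicates. A pooled peak was present for 10 of 13, with a median strongest signal of 19.9. Of their 25 summits, 9 (36%) were matched in both replicates, against 19.5% over all genes. The rpn-3 window held 4 of these 9, and all but the one nearest to rpn-3 lay inside hsp-110. The other summits matched in both were at rpn-6.1, rpn-6.2, rpn-13 and, with 2 summits, rpn-8. rpn-13, which encodes a ubiquitin receptor (III from 6340113 to 6341928, minus strand), had its strongest summit 352 bp upstream at 24.0, with 12.6 in replicate 1 and 10.6 in replicate 2, and no other gene window held that summit. rpn-6.2, a paralogue of the lid gene rpn-6.1, had a summit in its coding sequence 38 bp after the start at 22.7, with 10.6 and 12.8 in replicates 1 and 2. The strongest summit of rpn-8, which encodes the partner of the deubiquitinating subunit, lay 1580 bp upstream at 24.1, with 10.7 and 8.77, and was nearer to the start of R12E2.11. Its second summit, in an intron at 19.2, lay within 200 bp of the snoRNA gene R12E2.17.

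Other lid and base genes were lower or had no pooled peak. rpn-11, which encodes the deubiquitinating enzyme itself, had 1 summit 202 bp upstream at 20.04, matched in replicate 2 alone at 11.5. The lid gene rpn-6.1 had 4 summits of 18.8 or less, of which the 1 matched in both replicates, in coding sequence 1398 bp after the start, was the lowest at 12.3. rpn-5, rpn-7, rpn-10 and rpn-12 had strongest signals of 19.8, 15.8, 17.0 and 18.7, at summits in the gene body and, except at rpn-12, in the 3′ UTR. The scaffold gene rpn-2 and the lid gene rpn-9 had no pooled peak, although replicate 2 gave 12.5 and 12.2 in their windows and replicate 1 gave 6.16 at rpn-2. rpn-1, the other scaffold gene, had no peak in any list.

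The members not yet described had strongest signals between 13.0 and 18.9. The pas-2, pas-3 and pas-4 summits next to the start lay 174, 223 and 162 bp upstream at 13.0, 13.2 and 16.7, and each was nearer to another gene's start. The strongest summits of pbs-5 and pbs-6 were at 14.2 and 13.3. rpt-3 had 1 summit at 15.8, rpt-4 had 1 summit in an intron at 17.2, and rpt-6 had a strongest summit 804 bp upstream at 18.9. Its weaker summit at 16.0 lay within 200 bp of the snoRNA gene Y49E10.36.

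Replicate support was rare below a pooled signal of 20 and common above it, at members as elsewhere. Pooled peaks were called on the same replicates, so pooled signal and replicate support are not independent measures. Of the 55 pooled summits in member windows, 11 (20%, exact Clopper-Pearson 95% interval 10.4 to 33.0) had a summit within 200 bp in both replicate lists, against 19.5% of the 24464 summits in the windows of all protein-coding genes. A further 26 (47.3%) were matched in replicate 2 alone, 11 (20%) in replicate 1 alone and 7 (12.7%) in neither. The shares over all genes were 47.8%, 17.7% and 15.1%. A single replicate summit could match more than 1 pooled summit, as it did at pbs-4 and at rpn-10. At a signal of 20 or more, 8 of 12 member summits (66.7%) were matched in both, against 60.5% for all genes. Below 20 it was 3 of 43 (6.98%), against 10.5%. By gene, 7 of 33 members (21.2%) had a summit matched in both, against 24% of all genes, and for 6 of the 7 it was their strongest one. The 20S genes had 1 of 21 summits matched in both and the 19S genes 10 of 34, or 6 of 29 without rpn-3; this contrast was noticed in the data and not tested. The interval covers the counting of peaks only. It treats summits as independent, although several of the 11 lay in the rpn-3 window.

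**Figure D3:**
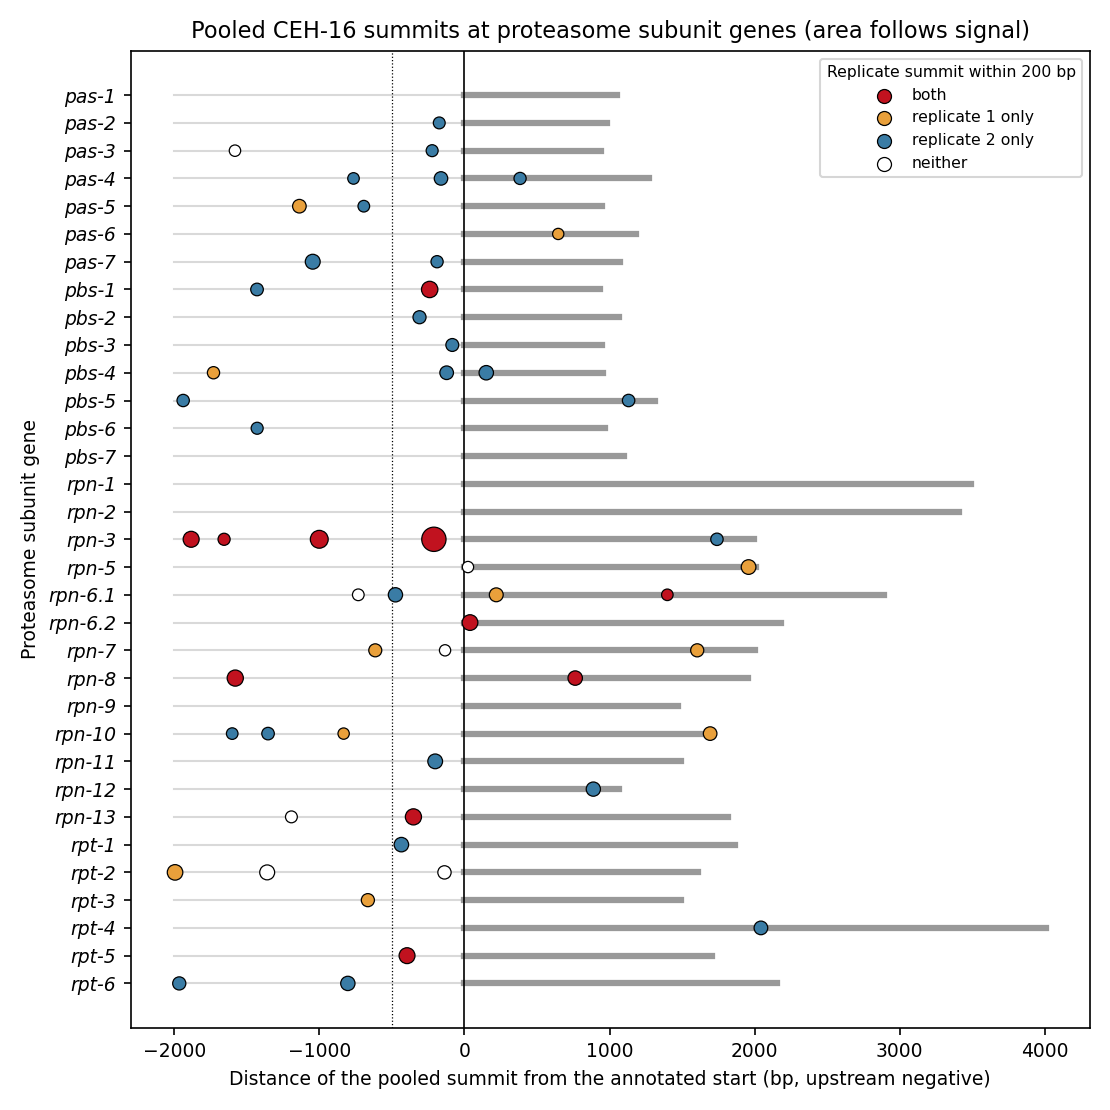
Each pooled summit in a member window, by distance in bp from the annotated start (horizontal axis, upstream negative; thick bars are gene bodies), with the area of the point following the signal and the colour giving replicate support within 200 bp. Summits gather left of the start, 16 of 55 between the dotted line at 500 bp and the start, and those in both replicates are mostly in the windows of rpn genes.

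Summits at proteasome genes lay close to the start more often than at other genes, with no test made. A pooled summit was within 500 bp of the start of 18 of 33 members (54.5%), against 33.3% of all protein-coding genes, a measure that does not depend on gene length. The replicates gave 12 members (36.4%, against 22.4% of all genes) in the replicate 1 list and 17 members (51.5%, against 32.7%) in the replicate 2 list. Of the 55 member summits, 16 (29.1%) lay 500 bp or less upstream, against 13.8% for all genes. Per kb, that zone held 0.970 summits at members and 0.437 at all genes. The rest of the upstream window, out to 2000 bp, held 0.485 and 0.316 per kb, and the gene bodies 0.272 and 0.277 per kb. In gene bodies, then, members did not stand above other genes.

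Proteasome genes more often had another gene start close by. Another protein-coding start lay within 1000 bp of 23 of 33 members (69.7%), against 23.5% of all genes. Among genes with such a neighbour, 14 of 23 members (60.9%) had a pooled summit within 500 bp of the start, against 39.1% of all genes. Among genes without one, 4 of 10 members (40.0%) did, against 31.5%. Of the 55 member summits, 47 (85.5%) also lay in the window of another protein-coding gene, against 42.7% of the 31728 pairs of a gene and a summit over all genes, and the member's own start was the nearest for 25. The part of neighbouring starts in the count of summits near member starts was not tested. The stretch from 200 bp before to 200 bp after a summit had a mean GC share of 36.0% ± 4.1 for members (SD, 55 summits) and of 34.9% ± 5.1 for all genes (SD).

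Genes that work with the proteasome gave 1 thresholded peak as well. Of 30 genes of the ubiquitin system and proteasome partners found in the annotation, of 31 listed, cdc-48.1 had a thresholded peak (3.33%). cdc-48.1 encodes an AAA ATPase that extracts ubiquitinated proteins, and its summit 153 bp upstream of the start had a pooled signal of 95.8, with 28.5 in replicate 1 and 64.7 in replicate 2. Next came ubq-1, which encodes polyubiquitin, at 36.5 in an intron, with 23.6 and 15.0 in replicates 1 and 2. A pooled peak was present for 21 of the 30 (70.0%) and a summit matched in both replicates for 10 (33.3%). Of the regulators known to act on proteasome gene expression, skn-1 had a strongest pooled signal of 33.3, while png-1 and ddi-1 had no pooled peak. The strongest peaks anywhere in the skn-1 window were 13.2 in replicate 1 and 20.2 in replicate 2. Whether these lay at the pooled summit was not examined. Replicate 2 gave 11.8 in the png-1 window, and ddi-1 had no peak in any list. The COP9 signalosome, whose subunits resemble those of the lid, had a pooled peak at 4 of 6 genes and no thresholded peak. Its highest signals were 18.6 at csn-5 and 17.2 at csn-1.

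Other complexes of similar kind had more thresholded peaks. The CCT chaperonin, a barrel that folds actin and tubulin, had thresholded peaks at 2 of 8 genes (25.0%), cct-1 at 55.4 and cct-8 at 52.1, and a summit matched in both replicates at 6 of 8. Ribosomal protein genes, with the window rule used here, had thresholded peaks at 16 of 78 (20.5%), led by rpl-3 at 131 and rpl-35 at 104.1. The strongest of the 16 was thus 2.41 times the rpn-3 signal within the same list. A summit matched in both replicates was present for 7 of 33 proteasome genes (21.2%), against 6 of 8 CCT genes (75%) and 47 of 78 ribosomal protein genes (60.3%). Ribosomal protein genes had neighbours to a like degree, with another start within 1000 bp for 71.8%, and a pooled summit within 500 bp of the start for 73.1%. That share was 71.4% for ribosomal protein genes with such a neighbour and 77.3% for those without, the opposite order to that of members and of all genes. These differences between lists were not tested.

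**Figure D4:**
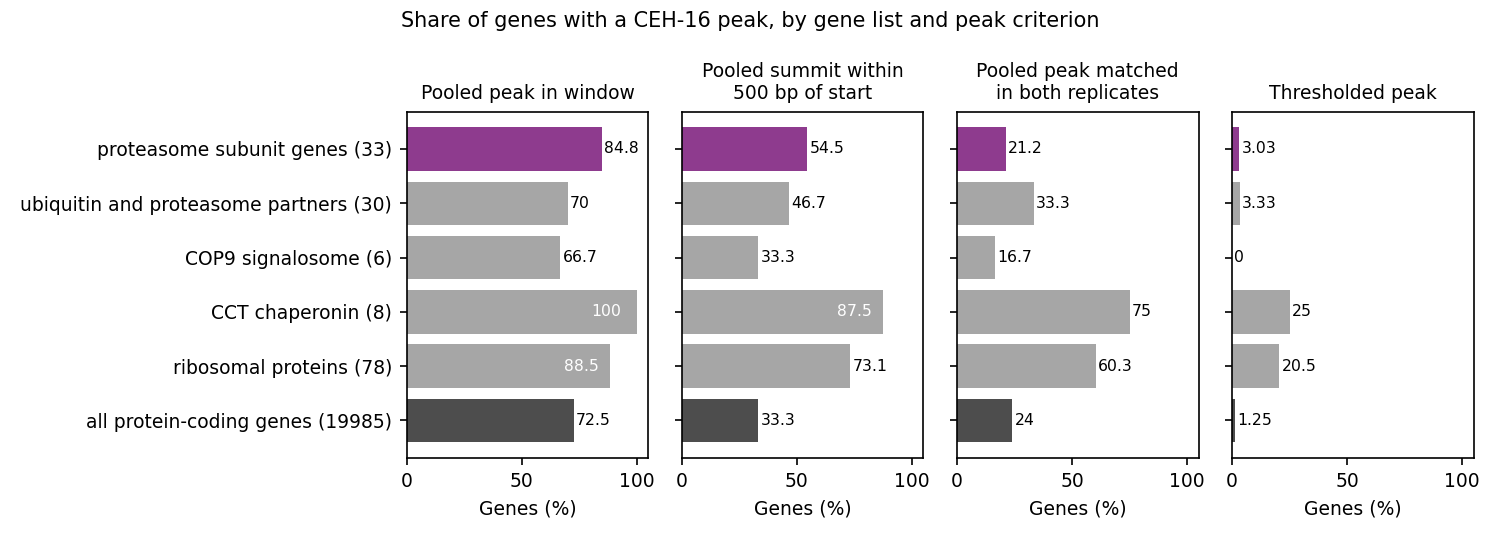
Percent of genes (horizontal axes) in 6 gene lists that met each of 4 criteria, with the number of genes in brackets and the proteasome genes on top. Proteasome genes reach 84.8% for a pooled peak and 54.5% near the start, against 72.5% and 33.3% of all protein-coding genes, but 21.2% and 3.03% for peaks in both replicates and thresholded peaks, against 24% and 1.25%.

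The promoters of the 33 members, from 250 bp before to 50 bp after the annotated start, were searched on both strands for the same words. TAATTA was in 8 of them (24.2%), against 15.5% of 19973 protein-coding promoters, and within 50 bp of 7 of 55 member summits (12.7%), against 5.24% of nuclear pooled summits. The other homeodomain core, TAATTG, was in 18.2% of member promoters, against 23.6%. GTCAT was in 57.6% of member promoters, against 39.5%, and ATCAT in 57.6%, against 55.6%. TGACNNNGC was in 5 member promoters (15.2%), against 5.15%, those of pas-5, pbs-7, rpn-6.2, rpt-2 and rpt-5. CGCGCA was in 5 (15.2%), against 6.08%, and GAGAGA in 6 (18.2%), against 21.8%. Within 50 bp of summits, GTCAT stood at 12.7% of member summits and 13.4% of pooled summits, ATCAT at 25.5% and 21.8%, and CGCGCA at 7.27% and 1.75%. TAATTG stood at 1.82% of member summits and 9.17% of pooled summits, TGACNNNGC at 3.64% and 1.53%, and GAGAGA at 5.45% and 6.73%. These shares describe letters in the windows and were not tested.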

How the data were processed

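ChIP-seq peak lists for 2 biological replicates, with group and replicate numbers from the labels, were used as deposited. Per the labels, chromatin was sonicated and both ce10 and ce11 were used; per a provenance text that came with the lists, a control entered the peak calls (not analysed here). For the aligner and the peak caller, names are not given in the sources used here. In the lists the authors deposited a signal per peak (scale not stated) and a summit offset in bases. The thresholded list was the 214 pooled peaks of highest signal. Genes came from Ensembl release 115 (WBcel235, ce11), sequence from RefSeq, and no peak ran past a chromosome end. Summits were assigned by window, then matched between lists within 200 bp. Assignment and matching were tested on simulated data. Coordinates are 1-based. The software was scipy 1.17.1, pandas 2.3.3, numpy 2.4.6 and matplotlib 3.10.9 under Python 3.11.15.

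The members and lists were chosen with earlier results of these data known, so gene lists are described by counts and medians beside all protein-coding genes, with no test. Lists were matched by symbol: ubiquitin and proteasome partners, COP9 signalosome (6 of 8 symbols found), CCT chaperonin and ribosomal proteins. Named were members with a thresholded peak, the 8 of highest pooled signal, those matched in both replicates, those with no peak, and list genes with a thresholded peak or the 2 highest signals; skn-1, png-1 and ddi-1 were added for their known role after their values were seen, as were the other members, so that all 33 are accounted for. Sequences were printed for the members with a thresholded peak or the 4 highest signals, except rpn-8. Of the 16 ribosomal protein genes with a thresholded peak, only the top 2 are named. Neighbour counts and values without rpn-3 were added after seeing the data. Other windows, matching distances, thresholds and each replicate alone were tried.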

Additional observations from a re-analysis of the deposited data

How the results depend on the processing

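Of 27 alternative values, 20 were kept and 7 moved. A kept value stayed within 1.5 times the reported count or within the interval of the share. For the median signal, it stayed within 1 SD of the reported 18.7, the SD being that between the 2 replicate medians (1.71). rpn-3 had a thresholded peak under every window tried (1000 or 500 bp upstream, within 500 bp of the start, nearest start only). Its summit lies 211 bp upstream, so the windows of 500 and 1000 bp had to hold it. The nearest start turned on 211 bp against 233 bp to hsp-110. rpn-3 also stayed among thresholded peaks found in the ce10 thresholded list. That match used chromosome and near-equal signal, not position, and both lists come from the same replicates, so it is no independent check. In the stronger 50% of the ce11 thresholded list the number of members was 0, against 0.535% of all genes. That cut was made with the 25 mitochondrial peaks kept in the list, and rpn-3 ranked 117 of the 214. Among the 214 strongest peaks of a single replicate, the number of members ran from 0 (without replicate 2) to 1 (without replicate 1, rpn-3). The share over all genes was 1.16% in either case. A pooled summit within 500 bp of the start left 18 of 33 members, against 33.3% of all genes. For a peak in both replicate lists the number was 9 of 33 with 500 bp upstream, against 32.5% of all genes. Within 500 bp of the start it was 6 of 33, against 10.7% of all genes. These windows are smaller than the main one, and the shares over all genes fell with them as well. A kept count says nothing of the comparison with all genes. With the nearest start only, 20 members had a pooled peak and 11 a peak in both replicate lists. Both counts were kept, yet they lay below the shares of all genes, 67.6% and 42.9%. The median signal ran from 9.91 without replicate 2 to 12.3 without replicate 1, each being the value of the other replicate's list on its own scale. Both were counted among the 7 that moved, although these lists and the pooled list have no stated common scale. Those counts therefore say nothing about how stable the median is. The share of member summits matched in both replicates depended on the matching distance. It was 10.9% within 50 bp and 29.1% within 500 bp, against 7.98% and 27.4% over all genes. Both were counted as kept because the interval is wide. Added after seeing the data, leaving out rpn-3 gave 14% of member summits matched in both replicates (20% with it). No paired analysis was possible because there is a single group. Depth is unknown, so what it limits could not be examined.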
